A study of Mus musculus with 9 samples.

Results

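The genes described here are 46 genes of the cell cycle and of DNA replication, taken by symbol from the 53715 gene IDs of the deposited count table. They were split into 17 S phase genes, 24 mitotic genes and 5 genes of G1 control. All 46 were found in the table and all 46 passed the filter on low counts, with at least 146 counts in every library. The series profiled the RNA of thymocytes that had been sorted for TCRβ, CD69, CD24, CD4 and CD8, that is, double-positive cells after the first signal through the T cell receptor. SRSF1KO mice (2 libraries) carried the genotype Srsf1fl/flLckcre/+, in which a Cre recombinase driven by the promoter of the T cell kinase gene Lck deletes loxP-flanked Srsf1, which encodes a serine/arginine-rich splicing factor. WT mice (3 libraries) served as controls, and the labels do not say whether they carried Cre or floxed alleles. All mice were C57BL/6 and 6 to 8 weeks old, and no label says whether the replicates were separate animals. Counts of the Y-linked gene Ddx3y, given below, differ between the 2 SRSF1KO libraries and set WT replicate 2 apart from WT replicates 1 and 3. Libraries that differ in this way cannot come from the same animal, while WT replicates 1 and 3 may. Each p-value reflects nothing more than how these 5 libraries vary, and part of that spread may be technical.

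Before S phase, the MCM2-7 ring is loaded onto replication origins by ORC, CDC6 and CDT1, and CDC45 and the GINS complex then turn it into an active helicase. Its genes, with those of cyclin E and of the enzymes that supply deoxynucleotides, are classic targets of E2F transcription factors at the G1/S boundary. Mitotic genes are switched on later, through promoters that often hold NF-Y sites (CCAAT boxes) and a cell cycle homology region (CHR). Cyclin B with CDK1 starts mitosis, Aurora and Polo kinases build the spindle and the checkpoint, and CDC20 with the ubiquitin enzyme UBE2C starts the destruction of cyclin B at anaphase. In the thymus the bursts of division occur in early double-negative cells and in large blasts entering the double-positive stage, while most double-positive cells are small and do not divide.

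Many promoters of these genes hold such letters and some hold none, and 4 are shown so that their letters can be set beside the values. RefSeq promoter windows (GRCm38.p6, 300 bases each) were at hand for 37 of the 46 genes, 40 windows in all. The sequences lie upstream of the annotated start and are written 5′ to 3′ on the coding strand. They belong to the pair of S phase genes and the pair of mitotic genes with the smallest p whose upstream bases lie outside the annotated gene. Capitals mark CCAAT, the CHR letters TTTGAA, and the E2F letters TTTCCCGC, TTTGGCGC, TTTCGCGC or TTTGCCGC, each searched on both strands.
Mcm6: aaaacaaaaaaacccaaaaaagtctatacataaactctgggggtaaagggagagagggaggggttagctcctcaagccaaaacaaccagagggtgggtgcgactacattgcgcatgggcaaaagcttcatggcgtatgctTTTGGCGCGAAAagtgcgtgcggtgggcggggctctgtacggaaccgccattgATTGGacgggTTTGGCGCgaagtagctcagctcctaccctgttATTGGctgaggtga
Mcm2: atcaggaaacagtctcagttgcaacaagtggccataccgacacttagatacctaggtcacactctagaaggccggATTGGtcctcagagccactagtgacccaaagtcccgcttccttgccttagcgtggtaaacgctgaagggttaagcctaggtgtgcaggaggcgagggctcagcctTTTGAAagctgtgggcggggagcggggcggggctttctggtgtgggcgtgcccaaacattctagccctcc
Ccnb1: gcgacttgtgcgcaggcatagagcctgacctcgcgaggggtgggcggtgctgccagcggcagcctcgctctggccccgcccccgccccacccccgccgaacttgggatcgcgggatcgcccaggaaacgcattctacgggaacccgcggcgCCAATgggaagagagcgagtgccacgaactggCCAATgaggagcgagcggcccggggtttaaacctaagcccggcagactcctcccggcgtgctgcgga
Top2a: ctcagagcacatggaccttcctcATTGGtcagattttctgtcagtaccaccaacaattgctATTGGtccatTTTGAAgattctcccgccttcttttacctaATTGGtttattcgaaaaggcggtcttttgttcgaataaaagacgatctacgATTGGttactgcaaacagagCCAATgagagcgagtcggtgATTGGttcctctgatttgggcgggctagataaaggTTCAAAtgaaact
The Mcm6 bases lie at chr1:128359706-128359955, those of Mcm2 at chr6:88898781-88899030, those of Ccnb1 at chr13:100786487-100786736 and those of Top2a at chr11:99024200-99024439, all on the minus strand. Mcm6 holds 3 E2F matches, of which those 110 to 103 and 106 to 99 bases before the start overlap. Mcm2, also an S phase gene, holds no E2F match but a CHR match 70 to 65 and a CCAAT match 175 to 171 bases before the start. Top2a holds 2 CHR matches and 6 CCAAT matches. Ccnb1 holds 2 CCAAT matches, 99 to 95 and 67 to 63 bases before the start, and no CHR match.

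Across all windows the CHR and E2F letters differed in share between the gene groups. TTTGAA stood in 14 of 19 mitotic windows (73.7%), in 3 of 16 S phase windows (18.8%) and in 17.9% of the 32851 promoter windows in the table. An E2F match stood in 1 of 19 mitotic windows (5.26%), in 6 of 16 S phase windows (37.5%) and in 2.26% of all windows. CCAAT was common in both, in 17 of 19 mitotic windows (89.5%) and 12 of 16 S phase windows (75%), against 37.4% of all windows. These are matches of letters and show no binding.

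The level of Srsf1 was 42.6 and 30.9 CPM in SRSF1KO replicates 1 and 2, against 96.9, 122.7 and 103.1 CPM in WT replicates 1, 2 and 3 (CPM is the count divided by the TMM-adjusted library size and scaled to a common total). Its log2 fold change was -1.55 ± 0.19 (SE; edgeR adjusted p = 0.0483), and with any 1 library left out the adjusted p lay between 0.0509 and 0.22, above the threshold of 0.05. Total counts were similar, 36026006 and 36062595 in SRSF1KO libraries and 36487359 to 38985285 in WT libraries. The share of counts in the top 10 genes was 10.2% and 9.92% in SRSF1KO libraries and 6.77% to 8.27% in WT libraries. SRSF1KO replicate 1 and WT replicate 2 had the Y-linked pattern (5699 and 5803 counts of Ddx3y), and the other 3 libraries had 23 to 141. Counts of Xist were 282 in SRSF1KO replicate 1 and 1369 in WT replicate 2, against 14784 to 21400 in the other 3. All 9 genes of the sort gate were detected in every library, with a median log2 fold change of -0.02 and a range of -0.47 to 0.45. At an unadjusted p under 0.05 with edgeR, 1 of the 9 was lower and 1 higher, against 8.45% and 5.90% of all tested genes. DESeq2 called 1 of the 9 higher, against 2.34%, and 0 lower, against 3.87%. The 7 markers of pre-selection double-positive cells summed to 5191 and 3763 CPM in SRSF1KO libraries, against 2543 to 3037 CPM in WT libraries; all 7 had positive log2 fold changes and 0 passed with edgeR, which called 0.0519% of all tested genes higher. At an unadjusted p under 0.05, 6 of the 7 were higher, against 5.90% of all tested genes, and with DESeq2 4 were, against 2.34%. Markers of early thymocytes summed to 260.7 and 257.7 CPM in SRSF1KO and 179.4 to 247.0 CPM in WT, and none of the 10 was at 0 in any library. Notch1 alone had up to 6474 counts, against list sums of 6794 to 9511 counts. Of the 10 markers, 7 had positive log2 fold changes (median 0.33, range -1.17 to 2.53). At an unadjusted p under 0.05 with edgeR, 1 was lower and 2 were higher, against 8.45% and 5.90% of all tested genes. Erythroid markers summed to 83.7 and 18.5 CPM in SRSF1KO and 2.28 to 11.4 CPM in WT, over 3 genes. B cell markers summed to 48.4 and 44.5 CPM in SRSF1KO and 29.9 to 50.7 CPM in WT, and those of myeloid and dendritic cells to 88.8 and 83.3 CPM in SRSF1KO and 73.5 to 86.2 CPM in WT. Epithelial markers summed to 25.1 and 13.8 CPM in SRSF1KO and 14.1 to 14.3 CPM in WT, over 3 of 5 genes, and Krt5 was at 0 in 3 and Foxn1 in 2 libraries. The part of these cell markers, of the share of the top genes and of the sex pattern in the values below was not tested. In bulk RNA, fewer cells of a type and less RNA per cell cannot be told apart.

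In SRSF1KO the genes of the replication machinery lay mostly below WT and the mitotic genes mostly above it, and no single gene passed edgeR's test. Of the S phase genes 12 of 17 had a negative log2 fold change (median -0.25), and of the mitotic genes 20 of 24 had a positive one (median 0.37). Over all 17351 genes tested the median was -0.01 and 50.6% were negative. With edgeR's quasi-likelihood test 0 of 46 genes passed an adjusted p of 0.05, where 0.213% of all tested genes were called lower and 0.0519% higher. At an unadjusted p under 0.05, 7 S phase genes were lower and 0 higher, and 0 mitotic genes were lower and 8 higher, against 8.45% of all tested genes lower and 5.90% higher. DESeq2 called Cdc6 and Cdk4 lower and Ccna2, Ccnb1, Aurka, Bub1b, Top2a and Cdkn1b higher, where it called 3.87% of tested genes lower and 2.34% higher. With limma-voom 0 of the 46 genes passed.

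**Figure D1:**
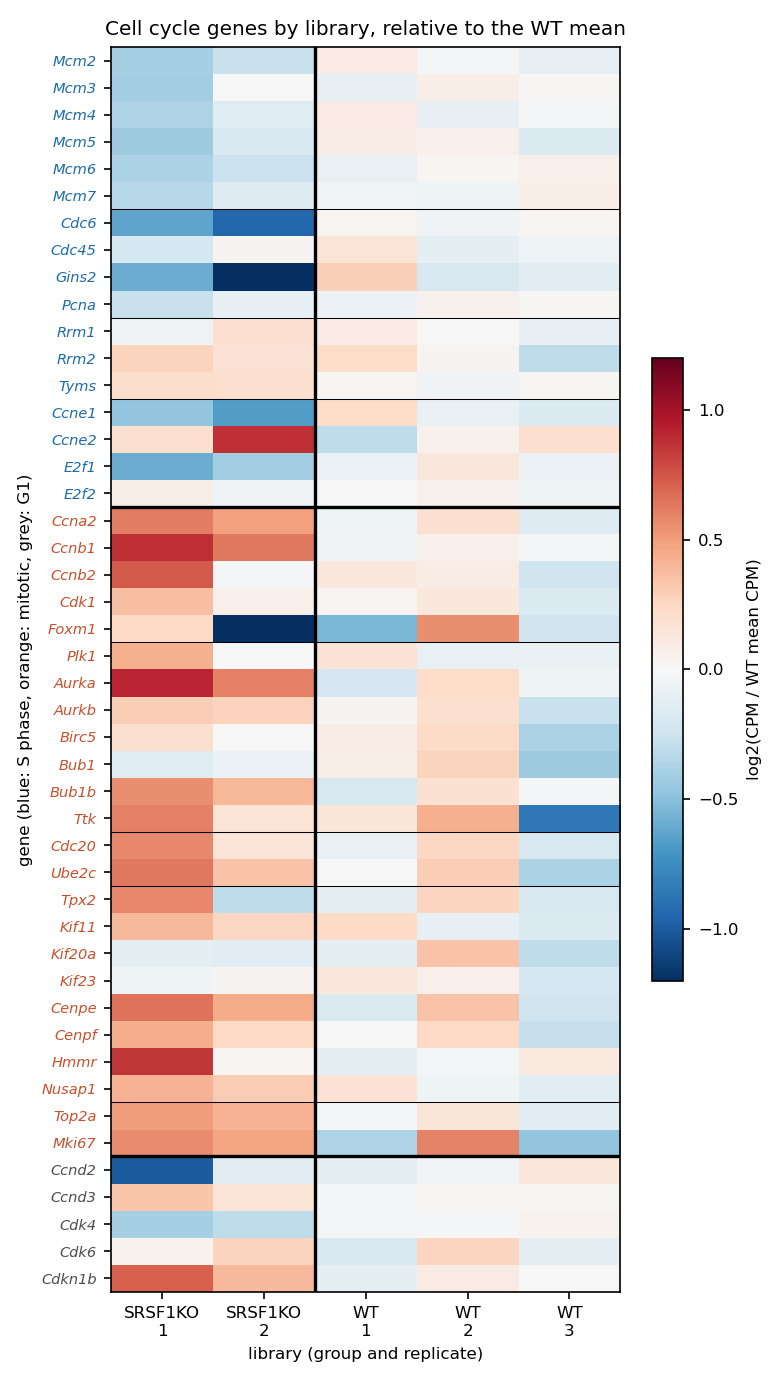
Level of each of the 46 genes in each library (columns) as log2 of its CPM over the WT mean CPM, with 17 S phase genes at the top, 24 mitotic genes in the middle and 5 G1 genes at the bottom. In SRSF1KO replicate 1, 21 of 24 mitotic genes are red (above the WT mean) and 4 of 17 S phase genes are; in WT replicate 2, 20 of 24 mitotic genes are red.

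The libraries of each group did not overlap for 25 of the 46 genes. Of the S phase genes 10 lay lower and 1 higher in both SRSF1KO libraries than in every WT library, and of the mitotic genes 0 lay lower and 10 higher. Over all genes tested the groups did not overlap for 17.8% lower and 15.2% higher.

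The 6 subunits of the MCM2-7 helicase, which unwinds DNA ahead of the fork, all had negative log2 fold changes, between -0.33 and -0.20. Mcm2 stood at 159.3 and 175.2 CPM in SRSF1KO libraries, against 225.5, 208.9 and 196.4 CPM in WT libraries (log2 fold change -0.33 ± 0.11, SE; adjusted p = 0.236). Mcm6 stood at 213.5 and 233.4 CPM in SRSF1KO, against 262.2, 283.7 and 289.7 CPM in WT (-0.32 ± 0.10, adjusted p = 0.221). For both genes every SRSF1KO library lay below every WT library. Mcm5 stood at 131.8 and 155.9 CPM in SRSF1KO, against 188.9, 185.0 and 158.6 CPM in WT. Mcm7 stood at 193.9 and 220.0 CPM in SRSF1KO, against 240.7, 237.4 and 258.8 CPM in WT, and Mcm4 at 106.7 and 124.5 CPM in SRSF1KO, against 147.6, 128.7 and 136.7 CPM in WT. The groups did not overlap for these 3 either, with SRSF1KO replicate 2 close to the lowest WT library for Mcm4 and Mcm5. Mcm3 stood at 91.8 and 122.2 CPM in SRSF1KO, against 114.2, 129.3 and 124.2 CPM in WT, so its groups overlapped. Summed over the 6 subunits the level was 897 and 1031 CPM in SRSF1KO libraries, against 1179, 1173 and 1164 CPM in WT libraries. The WT libraries were close together in this sum and both SRSF1KO libraries lay below them, replicate 1 further than replicate 2. The median log2 fold change of the 6 was -0.28, and it was -0.17 without SRSF1KO replicate 1, where Mcm3 stood at 0.00, and -0.37 without SRSF1KO replicate 2.

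The loading factor CDC6 had the lowest p of the S phase genes. Cdc6 (ENSMUSG00000017499.15, chromosome 11, 98907709 to 98923942, GRCm38) stood at 19.5 and 15.8 CPM in SRSF1KO libraries, against 30.8, 29.4 and 30.9 CPM in WT libraries (log2 fold change -0.78 ± 0.20, SE; adjusted p = 0.153 with edgeR and 0.0131 with DESeq2). Both SRSF1KO libraries lay well below the narrow WT range. Gins2, a subunit of the GINS complex that activates the helicase, stood at 7.08 and 4.08 CPM in SRSF1KO, against 13.0, 9.31 and 9.69 CPM in WT (-0.94 ± 0.37, adjusted p = 0.311). This was the most negative value of the 46, at a low level and with a wide error, and it was -0.57 without SRSF1KO replicate 2. Cdc45, the other helicase activator, overlapped between groups, with 27.3 and 32.2 CPM in SRSF1KO and 29.1 to 35.2 CPM in WT. Pcna, which encodes the sliding clamp of the DNA polymerases, stood at 166.6 and 187.5 CPM in SRSF1KO, against 191.3, 208.1 and 202.7 CPM in WT (-0.18 ± 0.10, adjusted p = 0.485). Its groups did not overlap, by a small margin, and the value was -0.10 without SRSF1KO replicate 1.

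The genes of deoxynucleotide supply stood apart from the helicase genes in sign. Tyms, thymidylate synthase, stood at 75.5 and 75.2 CPM in SRSF1KO, against 66.4, 63.6 and 66.0 CPM in WT (log2 fold change 0.21 ± 0.12, adjusted p = 0.484). Rrm2, the regulated subunit of ribonucleotide reductase, stood at 192.1 and 180.2 CPM in SRSF1KO, against 186.7, 163.4 and 129.4 CPM in WT. Its catalytic partner Rrm1 stood at 153.2 and 181.2 CPM in SRSF1KO, against 168.3, 157.2 and 146.8 CPM in WT. Of these 3 only Tyms had groups that did not overlap, with both SRSF1KO libraries above WT. The log2 fold change of Rrm2 was 0.22, and 0.10 without WT replicate 3, and that of Rrm1 was 0.09, and -0.02 without SRSF1KO replicate 2.

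The values of the G1/S regulators differed within families, and no difference between family members was tested. Ccne1 stood at 19.8 and 17.2 CPM in SRSF1KO, against 32.0, 25.9 and 24.5 CPM in WT (log2 fold change -0.57 ± 0.22, adjusted p = 0.297). Ccne2, the second cyclin E gene, stood at 12.1 and 19.5 CPM in SRSF1KO, against 8.61, 11.1 and 12.3 CPM in WT (0.57 ± 0.31, adjusted p = 0.453). The groups overlapped for Ccne2 and not for Ccne1, and the Ccne2 value was 0.21 without SRSF1KO replicate 2 and 0.88 without SRSF1KO replicate 1. E2f1, an activating E2F, stood at 4.44 and 5.01 CPM in SRSF1KO, against 6.36, 7.34 and 6.39 CPM in WT (-0.50 ± 0.34, adjusted p = 0.566). E2f2, which belongs to the same class of activators, stood at 118.0 and 109.4 CPM in SRSF1KO, against 112.7, 117.1 and 108.3 CPM in WT (0.01 ± 0.11, adjusted p = 0.981). The libraries of the 2 groups were mixed for E2f2, while E2f1 was lower in both SRSF1KO libraries.

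**Figure D2:**
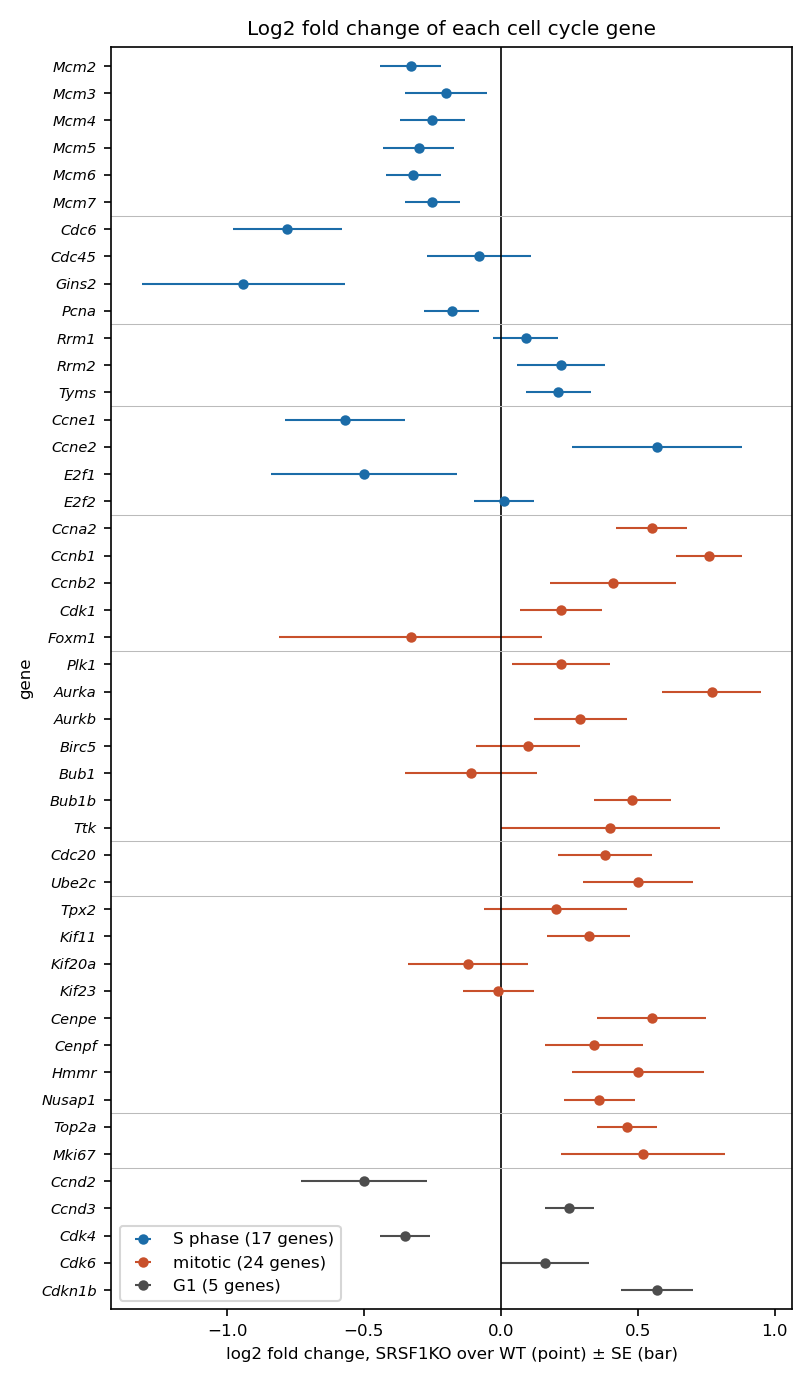
Log2 fold change of SRSF1KO over WT for each of the 46 genes (points) with its SE (bars), in blue for S phase, orange for mitotic and grey for G1 genes. The MCM2-7 genes sit between -0.33 and -0.20, and 20 of 24 mitotic genes sit right of 0, up to 0.77 for Aurka.

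Among mitotic cyclins, Ccnb1, which encodes cyclin B1, came nearest to the threshold of the 46 genes. Ccnb1 (ENSMUSG00000041431.16, chromosome 13, 100778739 to 100786486, GRCm38) stood at 122.0 and 103.0 CPM in SRSF1KO libraries, against 64.6, 69.2 and 65.3 CPM in WT libraries. Both SRSF1KO libraries lay far above the WT libraries, which were close together. Its mean was 112.5 ± 13.4 CPM in SRSF1KO (SD, n = 2) and 66.4 ± 2.45 CPM in WT (SD, n = 3), which gives 0.76 ± 0.12 on the log2 scale (SE; adjusted p = 0.0660 with edgeR and 1.75e-05 with DESeq2). Ccna2, cyclin A2, which acts in both S phase and mitosis, stood at 143.9 and 132.4 CPM in SRSF1KO, against 90.1, 107.7 and 84.5 CPM in WT (0.55 ± 0.13, adjusted p = 0.139). Again the groups did not overlap. Ccnb2 stood at 122.5 and 73.0 CPM in SRSF1KO, against 80.3, 78.3 and 62.3 CPM in WT, and Cdk1, the kinase of both cyclins, at 78.9 and 64.4 CPM in SRSF1KO, against 62.4, 67.2 and 55.1 CPM in WT. For both genes SRSF1KO replicate 1 lay above every WT library and SRSF1KO replicate 2 lay within the WT range. Without SRSF1KO replicate 1 the log2 fold change was -0.01 for Ccnb2 and 0.07 for Cdk1. Foxm1, a transcription factor of mitotic genes, stood at 30.6 and 10.8 CPM in SRSF1KO, against 17.8, 38.1 and 21.9 CPM in WT. Its libraries were spread widely in both groups.

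The mitotic kinases and checkpoint genes differed among themselves. Aurka, the Aurora kinase of the spindle poles (chromosome 2, 172356190 to 172370886), stood at 78.5 and 63.4 CPM in SRSF1KO, against 36.2, 48.2 and 40.2 CPM in WT (log2 fold change 0.77 ± 0.18, SE; adjusted p = 0.129). Bub1b, the checkpoint protein BUBR1, stood at 114.4 and 102.6 CPM in SRSF1KO, against 68.0, 88.1 and 76.9 CPM in WT (0.48 ± 0.14, adjusted p = 0.201). Every SRSF1KO library lay above every WT library for both. Aurkb, the Aurora kinase of the chromosomal passenger complex, stood at 56.5 and 56.0 CPM in SRSF1KO, against 47.2, 52.9 and 38.3 CPM in WT (0.29 ± 0.17, adjusted p = 0.515). Its partner Birc5, survivin, stood at 111.8 and 97.7 CPM in SRSF1KO, against 103.8, 114.6 and 74.9 CPM in WT (0.10 ± 0.19, adjusted p = 0.883). The groups overlapped for Birc5 and were apart by a small margin for Aurkb. Plk1, the checkpoint kinase Bub1 and the checkpoint kinase Ttk overlapped between groups, with log2 fold changes of 0.22, -0.11 and 0.40. Plk1 stood at 0.00 without SRSF1KO replicate 1, Bub1 at 0.04 without WT replicate 2, and Ttk at 0.12 and Aurkb at 0.18 without WT replicate 3.

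The genes of anaphase entry stood higher in SRSF1KO replicate 1 than in any other library. Ube2c stood at 143.0 and 116.7 CPM in SRSF1KO, against 92.5, 113.0 and 70.5 CPM in WT (log2 fold change 0.50 ± 0.20, adjusted p = 0.322). Cdc20 stood at 191.6 and 143.3 CPM in SRSF1KO, against 120.6, 152.4 and 112.2 CPM in WT (0.38 ± 0.17, adjusted p = 0.374). WT replicate 2 lay above SRSF1KO replicate 2 for Cdc20 and just below it for Ube2c. Without SRSF1KO replicate 1 the log2 fold change of Cdc20 was 0.16, and without SRSF1KO replicate 2 it was 0.60.

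Spindle, motor and kinetochore genes covered values from -0.12 to 0.55 on the log2 fold change scale. Cenpe, a kinetochore motor, stood at 74.5 and 64.4 CPM in SRSF1KO, against 42.0, 60.0 and 40.0 CPM in WT (0.55 ± 0.20, adjusted p = 0.287). Nusap1, a microtubule-bundling protein of the spindle, stood at 105.1 and 97.2 CPM in SRSF1KO, against 88.9, 76.0 and 71.6 CPM in WT (0.36 ± 0.13, adjusted p = 0.289). Kif11, the motor that separates the spindle poles, stood at 135.4 and 122.3 CPM in SRSF1KO, against 121.6, 96.6 and 91.4 CPM in WT (0.32 ± 0.15, adjusted p = 0.376). In all 3 the SRSF1KO libraries lay above WT, with WT replicate 1 close to SRSF1KO replicate 2 for Kif11. The kinesins of the central spindle did not share this, since Kif20a (-0.12) and Kif23 (-0.01) overlapped between groups. Kif23 stood at 99.2 and 105.1 CPM in SRSF1KO and at 88.9 to 112.7 CPM in WT, and the sign of its log2 fold change turned to 0.01 with the size factors of DESeq2 or the upper quartile. Hmmr (0.50) and Tpx2 (0.20), spindle assembly factors, overlapped too, with 69.7 and 114.3 CPM in SRSF1KO replicate 1 and 39.2 and 62.3 CPM in SRSF1KO replicate 2. Without SRSF1KO replicate 1 the log2 fold change was 0.02 for Hmmr and -0.30 for Tpx2. Cenpf, a kinetochore protein, had a log2 fold change of 0.34 and its groups just overlapped.

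Top2a, the topoisomerase that untangles sister chromatids (chromosome 11, 98992947 to 99024199), stood at 373.6 and 353.7 CPM in SRSF1KO, against 259.5, 293.0 and 240.5 CPM in WT. The groups did not overlap, and the difference was 0.46 ± 0.11 on the log2 scale (SE; adjusted p = 0.136 with edgeR and 0.00444 with DESeq2). Mki67, the gene of the proliferation marker Ki-67, stood at 138.9 and 129.9 CPM in SRSF1KO, against 72.7, 141.3 and 67.5 CPM in WT (0.52 ± 0.30, adjusted p = 0.494). WT replicate 2 was higher than either SRSF1KO library for Mki67, and the other WT libraries were far lower. The Mki67 value was 0.94 without WT replicate 2 and 0.34 without WT replicate 3.

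**Figure D3:**
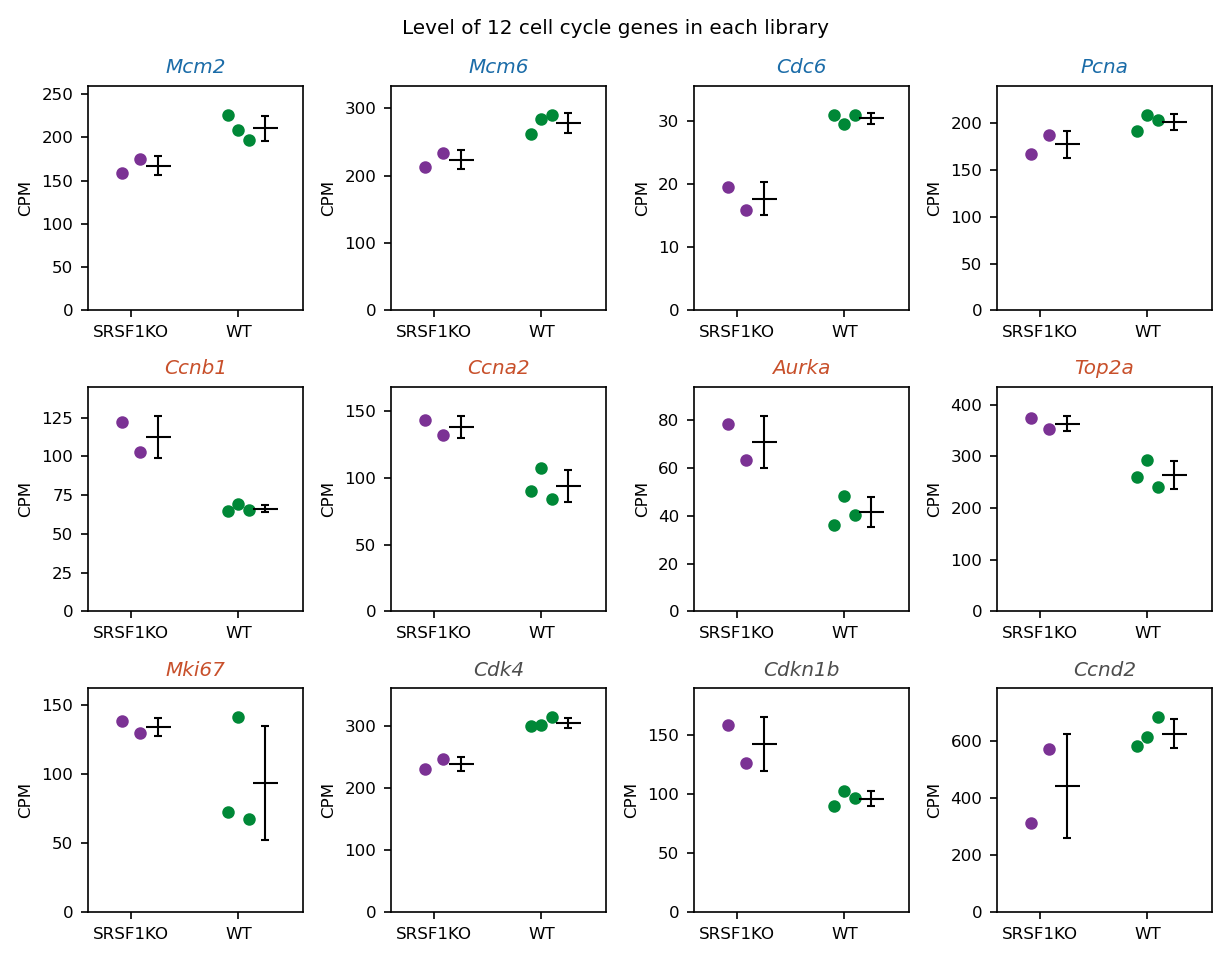
Level in CPM of 12 of the genes in each library (points; purple SRSF1KO, n = 2, and green WT, n = 3), with the mean and SD of each group in black beside them; each axis starts at 0. Mcm2, Mcm6, Cdc6, Pcna and Cdk4 lie lower and Ccnb1, Ccna2, Aurka, Top2a and Cdkn1b higher in both SRSF1KO libraries, while Ccnd2 in SRSF1KO replicate 1, at 314.5 CPM, and Mki67 in WT replicate 2, at 141.3 CPM, lie apart from their groups.

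The genes of G1 control had no common direction. Cdk4, the kinase partner of D cyclins (chromosome 10, 127063535 to 127067288), stood at 231.3 and 247.4 CPM in SRSF1KO, against 299.4, 300.9 and 314.0 CPM in WT (log2 fold change -0.35 ± 0.09, SE; adjusted p = 0.160 with edgeR and 0.0338 with DESeq2). Cdkn1b, the CDK inhibitor p27 (chromosome 6, 134920401 to 134925525), stood at 158.3 and 126.4 CPM in SRSF1KO, against 89.5, 102.8 and 96.3 CPM in WT (0.57 ± 0.13, adjusted p = 0.133 with edgeR and 0.00542 with DESeq2). The groups did not overlap for either gene. Cdk6, the other partner kinase, overlapped, at 127.9 and 150.3 CPM in SRSF1KO, against 109.8, 148.5 and 115.6 CPM in WT. Ccnd3, the D cyclin that early thymocytes need to expand, stood at 1221 and 1087 CPM in SRSF1KO, against 956.8, 977.8 and 977.4 CPM in WT (0.25 ± 0.09, adjusted p = 0.260). Ccnd2 stood at 314.5 and 571.5 CPM in SRSF1KO, against 583.0, 613.5 and 683.9 CPM in WT (-0.50 ± 0.23, adjusted p = 0.375). SRSF1KO replicate 2 was close to WT for Ccnd2, and without it the log2 fold change was -0.98 and passed the test (edgeR adjusted p = 0.0397). Without SRSF1KO replicate 1 it was -0.13 (edgeR adjusted p = 0.659), so the size of the Ccnd2 difference rests on that library. Without SRSF1KO replicate 1 Ccnd3 stood at 0.16, and Cdk6 ranged from 0.06 to 0.30 with 1 library left out.

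Read per library, the groups of genes were ordered differently. The 17 S phase genes summed to 1693 and 1859 CPM in SRSF1KO libraries, against 2030, 1994 and 1931 CPM in WT libraries, a ratio of means of 0.894. The 24 mitotic genes summed to 2513 and 2118 CPM in SRSF1KO libraries, against 1767, 2034 and 1554 CPM in WT libraries, a ratio of means of 1.30. Neither sum overlapped between groups, but SRSF1KO replicate 2 and WT replicate 2 were close for the mitotic sum. The mean log2 CPM weights the genes of a list equally. Over the mitotic genes it was 6.41 and 6.10 in SRSF1KO libraries, against 5.92, 6.15 and 5.72 in WT libraries, so the groups overlapped. Over the S phase genes it was 5.90 and 5.98 in SRSF1KO, against 6.20, 6.15 and 6.11 in WT, without overlap. SRSF1KO replicate 1 was the highest library for 18 of 24 mitotic genes and SRSF1KO replicate 2 for 0, while WT replicate 2 was the highest for 5. WT replicate 3 was the lowest for 17 of 24. The ratio of the mitotic to the S phase sum was 1.48 and 1.14 in SRSF1KO libraries, against 0.870, 1.02 and 0.805 in WT libraries. Without Top2a and Mki67 it was 1.18 and 0.879 in SRSF1KO libraries, against 0.707, 0.802 and 0.645 in WT libraries, so the order of the libraries was kept.

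**Figure D4:**
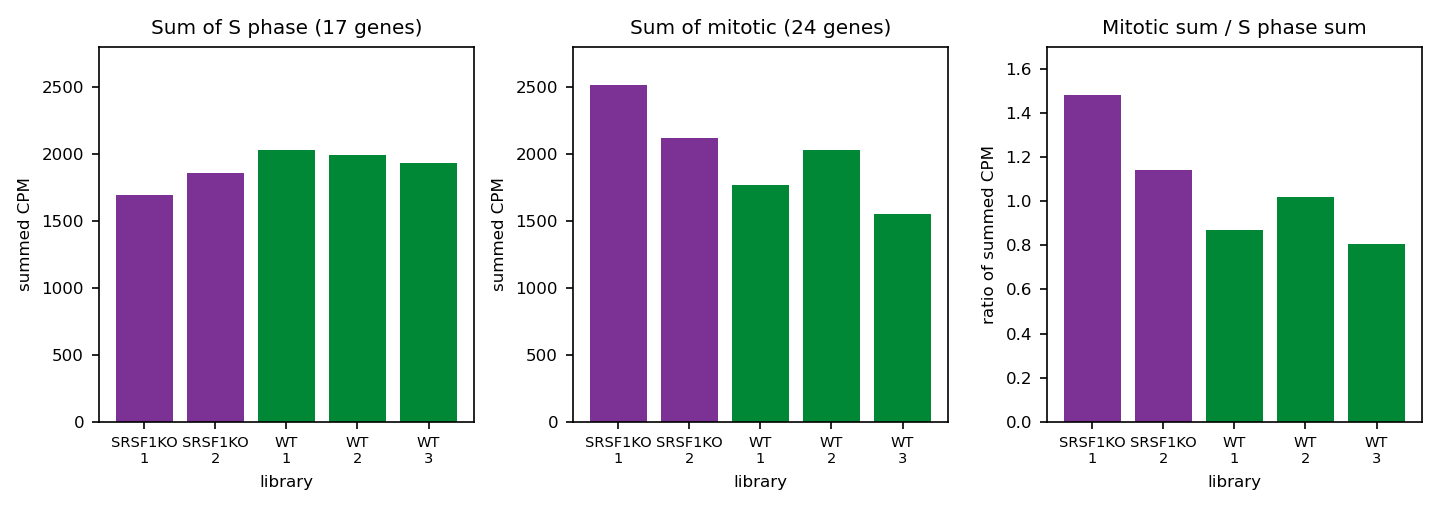
Summed CPM of the 17 S phase genes (left) and the 24 mitotic genes (middle) in each library, and the ratio of the mitotic to the S phase sum (right); purple bars are SRSF1KO and green bars WT libraries. The ratio is 1.48 and 1.14 in SRSF1KO and 0.805 to 1.02 in WT.

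The direction of both groups of genes held between libraries of like sex pattern, with sizes that differed. Between the libraries of the Y-linked pattern (1 SRSF1KO, 1 WT) the median log2 difference was -0.32 for S phase genes and 0.32 for mitotic genes. Between the other libraries (1 SRSF1KO, 2 WT) it was -0.15 for S phase genes and 0.29 for mitotic genes. In both comparisons 11 of 17 S phase genes were negative and 16 of 24 mitotic genes positive. Mki67 differed by -0.02 in the first comparison and 0.89 in the second, and Mcm3 by -0.49 and 0.04. Without SRSF1KO replicate 1 the medians were -0.14 for S phase and 0.20 for mitotic genes, and without SRSF1KO replicate 2 they were -0.35 and 0.55. Of the 24 mitotic genes 18 were positive without SRSF1KO replicate 1, 21 without SRSF1KO replicate 2, 21 without WT replicate 1, 24 without WT replicate 2 and 19 without WT replicate 3.

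Further genes of the same processes, taken from lists that do not overlap the 46 genes, had the same order of medians. These lists too were chosen with earlier results of these data known. They were read in the same libraries, so they give no independent support. Of 55 other replication genes 38 had a negative log2 fold change (median -0.15, and -0.02 without SRSF1KO replicate 1), and of 73 other mitosis genes 62 had a positive one (median 0.31). With edgeR 0 of either list passed, with 10 lower and 0 higher at an unadjusted p under 0.05 for replication and 2 lower and 24 higher for mitosis, against 8.45% lower and 5.90% higher over all tested genes. DESeq2 called 2 of 55 replication genes lower, a share near the 3.87% over all tested genes. It called 7 of 73 mitosis genes higher, against 2.34% over all tested genes. Ung, the glycosylase that removes uracil from DNA, stood at 13.6 and 22.0 CPM in SRSF1KO, against 53.8, 46.5 and 47.9 CPM in WT (log2 fold change -1.47 ± 0.24, SE; adjusted p = 0.0660). Ung passed with DESeq2 (adjusted p = 6.94e-07) and limma-voom (0.0457), and in edgeR with no filter (0.000236) and a minimum mean of 5 CPM (0.00806). It did not pass in edgeR with the other scalings, the sex pattern term or the replicate block. Without a WT library its edgeR adjusted p was 0.201 to 0.237. The log2 fold change of Ung was -1.17 without SRSF1KO replicate 1 and -1.84 without SRSF1KO replicate 2. Cdc7, the kinase that fires origins, stood at 26.1 and 32.3 CPM in SRSF1KO, against 49.8, 44.2 and 47.8 CPM in WT (-0.70 ± 0.17, adjusted p = 0.147). Both lay lower in every SRSF1KO library. Smc4, a subunit of condensin, stood at 730.6 and 669.3 CPM in SRSF1KO, against 528.2, 531.7 and 540.5 CPM in WT (0.39 ± 0.08, adjusted p = 0.122), and Kif22, a kinesin that moves chromosome arms, at 111.4 and 112.5 CPM in SRSF1KO, against 79.3, 80.0 and 80.9 CPM in WT (0.48 ± 0.10, adjusted p = 0.125). Both lay higher in every SRSF1KO library.

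**Figure D5:**
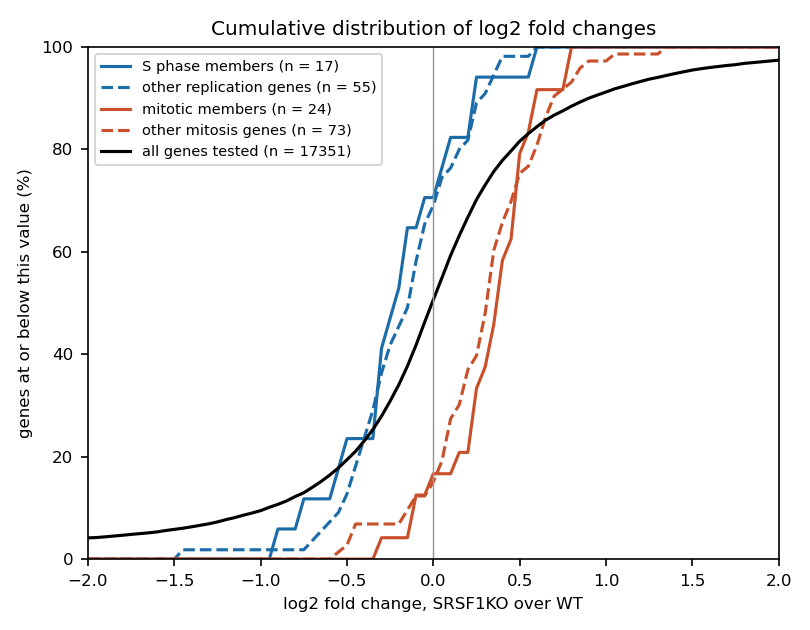
Share of genes (%) at or below each log2 fold change of SRSF1KO over WT for the S phase and mitotic genes (solid blue and orange), for other replication and mitosis genes (dashed) and for all 17351 genes tested (black). At 0 the share is 70.6% for S phase and 16.7% for mitotic genes, against 50.6% for all genes tested.

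Some values are less certain because reads from overlapping genes could be assigned to the wrong gene or left uncounted, and no strand setting is given. The annotated span of 17 of the 46 genes overlaps that of another gene, in 5 of them over more than 10% of the span. Kif20a overlaps Cdc23 over 57.0% and Ccne2 overlaps Ints8 over 39.2% of their spans, and Ccna2 overlaps Exosc9 over 10.6%. Of the processed copies named after these genes, Pcna-ps2 had at most 505 counts, against at least 6006 for Pcna, and Ccnb1-ps had at most 16, against at least 2446 for Ccnb1.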

How the data were processed

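Bulk RNA-seq of sorted thymocytes was used for 2 SRSF1KO and 3 WT samples, with groups taken from the titles and the genotype. Libraries followed Smart-seq2, per the labels' protocols, and the deposited values are raw counts of reads per gene, 1 column per sample. The submitters' processing notes name the build mm10, HTSeq 0.6.1, HOMER 4.9.1, FastQC 0.11.5, Bowtie2 2.1.0, Trim Galore, DESeq2 1.20.0 and cutadapt 1.17, with no roles. The RNA-seq aligner, annotation release and strand setting were not given in the sources used here. CLIP-seq (4 samples) was not used here. The lists and the 46 genes were chosen with earlier results of these data known, so no p is given over a list.

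IDs were matched to symbols in a names table (53620 of 53715). Counts were tested with edgeR 4.0.16 in R 4.3.3 (TMM, filterByExpr, glmQLFit with robust estimation, glmQLFTest, group as the only term, two-sided, Benjamini-Hochberg over 17351 genes), and the script was tested on simulated counts. Each SE is the absolute log2 fold change over the square root of F. Coordinates and promoters came from RefSeq GRCm38.p6. The genes given library by library are those with the smallest p in each role, up to 3, and a set named with the lists; of each other list the pair with the smallest p is given. Values of Foxm1, Birc5, Ccnd2, Cdc45, Kif23, Hmmr and Tpx2 are given beyond this rule, after they were seen. The alternatives were the size factors of DESeq2, the upper quartile, no filter, a mean of at least 5 CPM, DESeq2 1.42.0, limma-voom 3.58.1, a replicate block, a term for the sex pattern read from Xist and Ddx3y, and each library left out; where an SRSF1KO library is left out, the other is assumed to vary like WT. Log2 differences between single libraries used a prior count of 2. All pairs of libraries differed beyond sampling noise (chi-square per degree of freedom of 30.7 or more).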

Additional observations from a re-analysis of the deposited data

How the results depend on the processing

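Srsf1 missed the threshold with the size factors of DESeq2 (adjusted p = 0.0515) and with the replicate block (adjusted p = 0.383). The medians of the S phase and mitotic genes, of MCM2-7 and of the other lists kept their sign under all 13 alternatives, and moved by less than 1 SD of the list's median level between libraries of a group; the MCM2-7 median lay between -0.37 and -0.17. With 1 library left out the S phase median lay between -0.35 and -0.14 and the mitotic median between 0.20 and 0.55; the G1 median lay between 0.06 and 0.25. The counts of calls depended on the setting, and the cause was not tested. Against 37 lower and 9 higher among all genes, the counts were 7 and 3 with the size factors of DESeq2, 346 and 198 with no filter, 233 and 143 with a minimum mean of 5 CPM, 633 and 383 with DESeq2, 62 and 21 with limma-voom, 5 and 0 with the sex pattern term, and 0 to 67 lower and 0 to 21 higher with 1 library left out: 8 and 3 without SRSF1KO replicate 1, 67 and 21 without SRSF1KO replicate 2, and 0 and 0 without any 1 of the WT libraries (1903 to 2079 at an unadjusted p under 0.05 with edgeR). Against 0 calls, mitotic genes had 4 higher with no filter, 4 with a minimum mean of 5 CPM and 5 with DESeq2; S phase genes had 1 lower with DESeq2; G1 genes had 1 higher under each of these 3 settings and 1 lower with DESeq2, and 0 to 1 lower with 1 library left out. The other lists had 3 lower and 3 higher with no filter, 2 and 4 with a minimum mean of 5 CPM, 5 and 7 with DESeq2, 1 lower with limma-voom and 0 to 1 lower with 1 library left out.

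With the replicate number as a block, on the 4 libraries that share a number, edgeR called 0 genes lower and 0 higher (1609 at an unadjusted p under 0.05), and the medians were -0.20 for S phase and 0.26 for mitotic genes. Same-numbered libraries correlated at -0.025 and 0.034 in their deviations from the group means. The deviations of the SRSF1KO libraries mirror each other by construction, so these values cannot show whether same-numbered libraries were handled together. Of the 46 genes, 11 changed sign under some alternative, all with an absolute log2 fold change of at most 0.41 in the comparison of all libraries. Kif23 stood at 0.01 with either other scaling, with a minimum mean of 5 CPM and with DESeq2. E2f2 stood at 0.00 with the sex pattern term and the block, and Birc5 at -0.05 with the block. With 1 library left out the values ranged from -0.19 to 0.03 for Cdc45, -0.02 to 0.20 for Rrm1, -0.04 to 0.09 for E2f2, -0.01 to 0.75 for Ccnb2, -1.26 to 0.26 for Foxm1, 0.00 to 0.44 for Plk1, -0.05 to 0.23 for Birc5, -0.27 to 0.04 for Bub1, -0.30 to 0.59 for Tpx2, -0.24 to 0.08 for Kif20a and -0.10 to 0.07 for Kif23. The lowest count among the 46 genes, 146, was that of Gins2, where counting error weighs most.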

Other observations

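Regulators of the RB and E2F pathway and genes of quiescence showed no common shift as large as that of the mitotic genes. The quiescence median, -0.18, lay between those of the S phase genes, -0.25, and of the other replication genes, -0.15. Of 33 RB, E2F and CDK regulators 31 were tested, with a median log2 fold change of 0.10 (0.23 without WT replicate 3), and 0 passed with edgeR. At an unadjusted p under 0.05, 1 was lower and 2 were higher, shares near or below the 8.45% lower and 5.90% higher over all tested genes, and DESeq2 called 1 lower, against 3.87% of all tested genes. The groups did not overlap for 2 lower and 9 higher of the 31, against 17.8% and 15.2% of all tested genes. Myc, which drives growth and cell cycle entry, stood at 46.6 and 71.2 CPM in SRSF1KO, against 96.8, 104.3 and 90.0 CPM in WT (-0.72 ± 0.19, SE; edgeR adjusted p = 0.169; -0.45 without SRSF1KO replicate 1). Cdkn2c, an inhibitor of CDK4 and CDK6, stood at 25.5 and 25.2 CPM in SRSF1KO, against 11.2, 15.6 and 17.7 CPM in WT (0.77 ± 0.25, adjusted p = 0.237). For both the groups did not overlap, with Myc lower and Cdkn2c higher in SRSF1KO.

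Over 14 quiescence genes the median was -0.18 (-0.03 without WT replicate 2), with 10 negative, and 0 passed with edgeR. At an unadjusted p under 0.05, 2 were lower and 0 higher, against 8.45% and 5.90% of all tested genes, and DESeq2 called 2 lower, against 3.87%. Foxo1, a transcription factor of T cell quiescence and homing, stood at 27.9 and 35.4 CPM in SRSF1KO, against 64.7, 77.6 and 60.8 CPM in WT (-1.10 ± 0.18, SE; edgeR adjusted p = 0.0712). Btg1, an antiproliferative gene, stood at 349.7 and 361.7 CPM in SRSF1KO, against 451.1, 555.2 and 440.4 CPM in WT (-0.44 ± 0.12, adjusted p = 0.181). Both lay lower in every SRSF1KO library than in any WT library.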
